A study of Mus musculus with 2 samples.

Results

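The chemokine gene Cxcl12 and the genes of its receptors, Cxcr4 and Ackr3, were followed through the cells of the Isl1 lineage in mouse embryos with and without an activating Pik3ca mutation. The 3 genes were taken by symbol from the 32285 genes of the count tables, and each symbol had 1 row. They were chosen with earlier results from these cells in view, so their values between the libraries are a description.

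Cells were sorted for eYFP from the upper body above the liver at E13.5 (the embryonic day), and the labels name the tissue as pharyngeal arch. The control library came from Isl1-Cre;R26R-eYFP embryos and the mutant library from Isl1-Cre;R26R-eYFP;Pik3caH1047R embryos, each a pool of 3 embryos. Both libraries therefore carry Isl1-Cre and the eYFP reporter, and differ in the Pik3caH1047R allele, which codes for an overactive catalytic subunit of phosphoinositide 3-kinase. Isl1-Cre acts in cells that express Isl1 or descend from such cells, which include cells of the pharyngeal and cardiac mesoderm, the foregut and several neuron groups, so the mutation was not confined to the endothelium. The mice were of a mixed C57BL/6J and ICR background, and with 1 library per genotype no difference between genotypes can be tested. All intervals below are 95% intervals for counting error only, and they hold no spread between cells, between embryos or between sorts.

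Cxcl12 is a secreted chemokine made mainly by stromal cells, and in arteries also by endothelial cells. It acts through Cxcr4, a receptor that signals through inhibitory G proteins and guides blood cell precursors, muscle precursors, neurons and sprouting endothelial cells. Ackr3 binds the same ligand, signals mainly through arrestin and removes the ligand from the surroundings, so that cells with Ackr3 shape the gradient that cells with Cxcr4 read.

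Cxcl12 (ENSMUSG00000061353) lies on the forward strand of chromosome 6 at chr6:117168535-117181367 in GRCm38, with 3 coding transcripts of 3 to 4 exons in the GENCODE annotation. Cxcr4 (ENSMUSG00000045382) lies on the reverse strand of chromosome 1 at chr1:128588199-128592293, with 2 coding transcripts of 2 exons. Ackr3 (ENSMUSG00000044337) lies on the forward strand of chromosome 1 at chr1:90203980-90216751, with 2 coding transcripts of 2 to 3 exons. The libraries count the 5′ ends of transcripts, so the Cxcl12 transcripts, which differ in their last exons, were counted together.

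The 150 bases before the RefSeq start of each gene are shown because Cxcr4 is a known target of hypoxia-inducible factors and the study dealt with hypoxia. They are written 5′ to 3′ on the strand of the gene, from GRCm38.p6, at chr6:117168385-117168534 for Cxcl12, chr1:128592300-128592449 for Cxcr4 and chr1:90203830-90203979 for Ackr3. Capitals mark the core letters that these factors bind, searched as ACGTG and GCGTG on both strands of the 250 bases before the start.
Cxcl12: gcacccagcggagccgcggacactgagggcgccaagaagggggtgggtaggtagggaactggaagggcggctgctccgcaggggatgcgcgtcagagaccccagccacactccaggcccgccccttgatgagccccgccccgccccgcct
Cxcr4: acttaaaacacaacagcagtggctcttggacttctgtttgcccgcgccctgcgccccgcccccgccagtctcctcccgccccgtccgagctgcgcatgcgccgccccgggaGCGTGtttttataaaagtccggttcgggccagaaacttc
Ackr3: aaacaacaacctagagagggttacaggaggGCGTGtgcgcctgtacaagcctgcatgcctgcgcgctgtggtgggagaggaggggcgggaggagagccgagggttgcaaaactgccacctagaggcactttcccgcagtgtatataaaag
Cxcr4 held GCGTG 39 bases before its start and Ackr3 held it 120 bases before its start, while the Cxcl12 window held neither motif. Of 32851 RefSeq promoters, 38.6% held at least 1 of the motifs in a window of that length, so a match describes the letters and not a bound site.

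Of 4505 control and 5357 mutant barcodes, 2783 and 3489 had more than 2000 and fewer than 9000 genes and under 10% mitochondrial unique molecular identifiers (UMIs), with medians of 20412 and 16839 UMIs per cell. The libraries shared 12 barcodes among these cells. Cells with Xist and no Y-linked UMIs made up 95.5% of the control and 33.6% of the mutant cells, and cells with the opposite pattern 0.0359% and 53.3%, so genotype and sex make-up moved together. Clustering without the 3 genes and the pathway and chemokine lists gave 15 clusters, named as cell classes from fixed markers ("EC-like" for endothelial cells). These names were rebuilt here and are not the study's own annotation. A hepatoblast-like cluster, led by the liver genes Alb and Afp, had 0 control and 47 mutant cells, so the libraries differed in the classes they held. The EC-like class held 147 control and 692 mutant cells, with 43 of 55 endothelial-family markers raised. The 16 pan-endothelial markers summed to 7885 CPM (counts of a gene per 1000000 UMIs) in the control and 7851 CPM in the mutant EC-like cells.

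Over all filtered cells, Cxcl12 stood at 84.9 CPM in the control and 54.6 CPM in the mutant library, Cxcr4 at 8.49 and 7.07 CPM, and Ackr3 at 28.0 and 36.9 CPM. These library-wide levels mix cell classes in unequal shares: EC-like cells were 5.28% of the control and 19.8% of the mutant cells, and mesenchyme-like cells 32.2% and 18.3%. The values are therefore given by class.

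In the control, Cxcl12 was mainly a mesenchymal transcript. Mesenchyme-like cells held 4298 of 5359 Cxcl12 UMIs, or 80.2% (79.1 to 81.3%), and EC-like cells 348, or 6.49% (5.85 to 7.19%). In the mutant, mesenchyme-like cells held 2838 of 3809 UMIs, or 74.5% (73.1 to 75.9%), and EC-like cells 170, or 4.46% (3.83 to 5.17%). The EC-like share of the ligand was thus lower although the EC-like share of cells was higher. In the plot of source shares, EC-like cells supply a smaller part of the Cxcl12 UMIs than of all UMIs in the mutant, and a slightly larger part in the control.

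**Figure D1:**
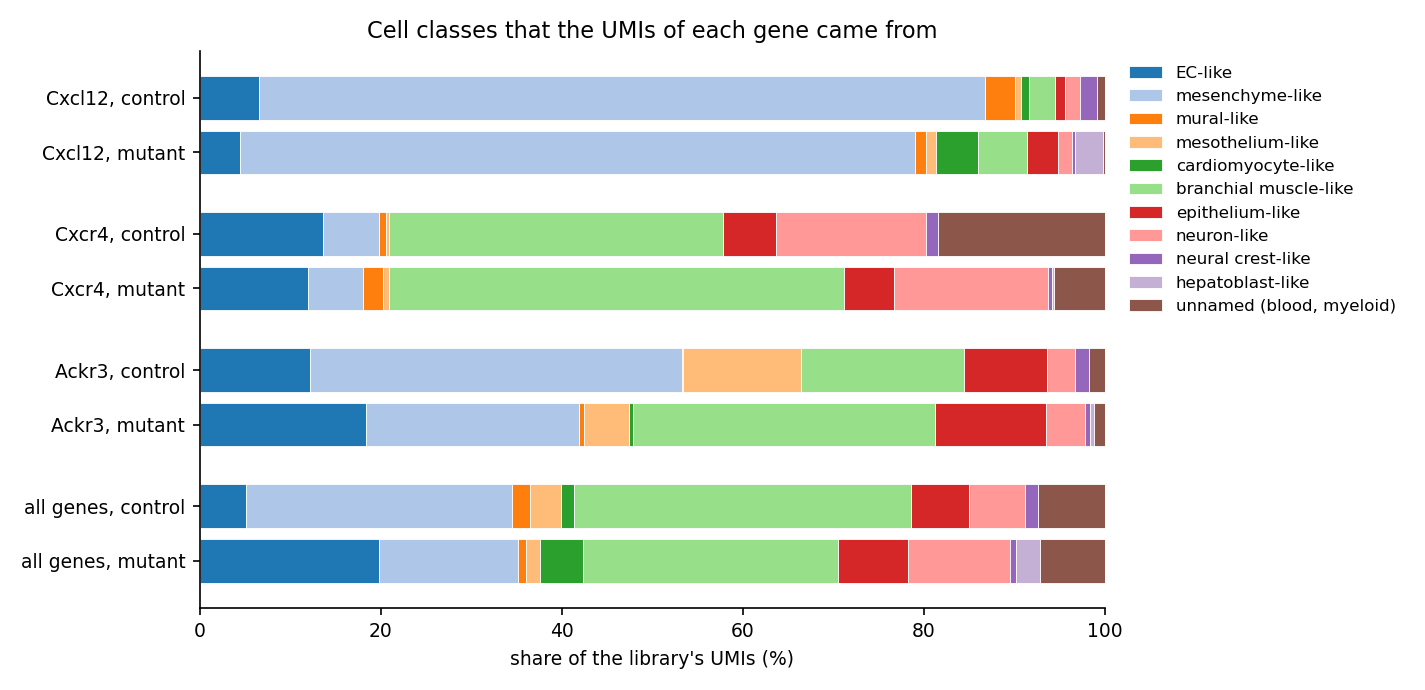
Stacked bars give the share of each library's UMIs (percent, horizontal axis) that came from each cell class, for Cxcl12, Cxcr4, Ackr3 and all genes. Mesenchyme-like cells hold 80.2% and 74.5% of the Cxcl12 UMIs in control and mutant, and EC-like cells 6.49% and 4.46%.

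Per cell class, the level of Cxcl12 in mesenchyme-like cells was 232 CPM (225 to 239) in the control and 265 CPM (256 to 275) in the mutant. In EC-like cells it was 107 CPM (96.3 to 119) in the control and 12.3 CPM (10.5 to 14.3) in the mutant. The endothelial level was therefore lower in the mutant, with intervals far apart, while the mesenchymal levels lay close together. The log2 ratio of mutant over control was -3.12 (-3.40 to -2.85) in EC-like cells, or 8.71-fold lower, and 0.20 (0.13 to 0.26) in mesenchyme-like cells.

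Within a library, mesenchyme-like cells had 2.16 times the Cxcl12 level of EC-like cells in the control and 21.5 times that level in the mutant. As log2 ratios of EC-like over mesenchyme-like cells these were -1.11 (-1.27 to -0.95) and -4.43 (-4.66 to -4.21). Taken as whole classes, EC-like cells were thus below mesenchyme-like cells in both libraries, and further below them in the mutant.

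The mesenchyme-like class was not uniform. Its larger cluster, marked by Twist1, Prrx1 and Lum, had 552 control and 578 mutant cells, with Cxcl12 at 365 CPM in the control and 285 CPM in the mutant. The cartilage genes Col9a3 and Col2a1 were also among its 10 leading genes. At resolution 0.8, a cluster led by the cartilage genes Matn1, Col9a3 and Acan had 92.1 and 88.9 CPM. One with Twist1, Lum and Prrx1 among its leading genes had 402 and 276 CPM. The smaller cluster of the class, marked by Adh1, Wnt2 and Tbx4, genes of lung and foregut mesenchyme, had 343 and 62 cells, with 69.8 and 144 CPM. In the control this smaller cluster lay below the EC-like class, which was at 107 CPM. In the smaller cluster, 1 mutant cell held 70 of the 214 UMIs, and 55.4% of control and 56.5% of mutant cells had a UMI. The log2 ratios had opposite signs, -0.36 (-0.43 to -0.29) and 1.05 (0.81 to 1.28), and were -0.41 (-0.49 to -0.34) and 0.58 (0.31 to 0.85) without the richest cell of each library. The 17 mesenchyme markers summed to 9044 CPM in the control and 4676 CPM in the mutant class, and the 11 mural markers to 449 and 1260 CPM. Their part in the Cxcl12 values was not tested.

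Embryos could be set apart to a degree within the mutant pool, since female-like and male-like cells come from different embryos. In mutant mesenchyme-like cells Cxcl12 was at 398 CPM in 191 female-like cells and 216 CPM in 387 male-like cells, so the 2 sets lay on either side of the control level of 232 CPM. In mutant EC-like cells the levels were 11.5 CPM in 233 female-like and 13.3 CPM in 381 male-like cells. Both endothelial values were below the control value of 107 CPM, whereas the direction in mesenchyme-like cells depended on which embryos were read. With female-like cells only, the log2 ratio was -3.33 in EC-like cells and 0.80 in mesenchyme-like cells. Sex and embryo cannot be told apart here.

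The share of cells with a Cxcl12 UMI told less than the level. It was 14.3% (9.07 to 21.0%) of control and 9.39% (7.32 to 11.8%) of mutant EC-like cells, and 66.6% and 60.8% of mesenchyme-like cells. In macrophage-like cells of the clustering at higher resolution, which should not make Cxcl12, the share was 2.17% of 92 control and 4.88% of 41 mutant cells, with medians of 26084 and 27400 UMIs against 20203 and 17038 UMIs in EC-like cells. After each cell was thinned to 5000 UMIs, the EC-like shares were 9.03% and 3.48%, with 3 control and 32 mutant cells too shallow to enter.

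The endothelial Cxcl12 of the control sat in few cells. Of 147 control EC-like cells, 21 had a Cxcl12 UMI, and the 7 with the most held 307 of the 348 UMIs, or 88.2%. Those cells held 107, 54, 42, 31, 30, 24 and 19 UMIs. In the mutant, 65 of 692 EC-like cells had a UMI, and the 7 richest held 94 of 170 UMIs, from 40 down to 4. Cells with at least 10 Cxcl12 UMIs numbered 7 of 147 in the control and 2 of 692 in the mutant. Cxcl12-rich cells were thus scarcer in the mutant class.

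**Figure D2:**
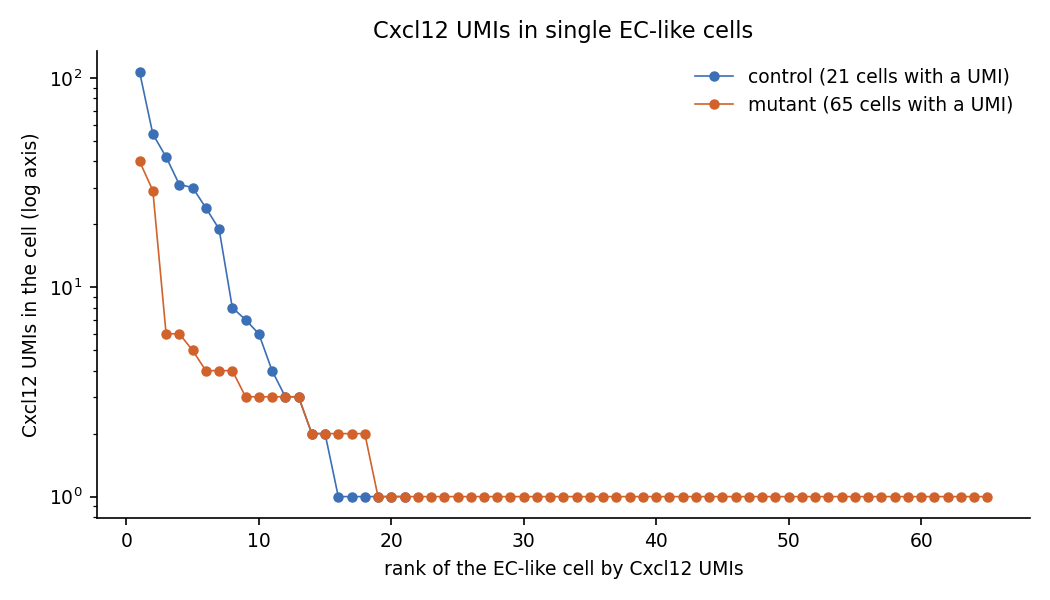
Each point is 1 EC-like cell with at least 1 Cxcl12 UMI, ranked by its Cxcl12 UMIs (log axis) within its library. The 7 richest control cells hold 19 to 107 UMIs, and only 2 mutant cells lie in that range, at 40 and 29 UMIs.

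The 7 Cxcl12-rich control cells were endothelial by their own transcripts. Each had 11 to 63 Cdh5 UMIs and 11 to 64 Pecam1 UMIs, both genes of endothelial junctions, and 6 to 106 UMIs of Gja4, a gap junction gene of arterial endothelium. None had a Prrx1 or Twist1 UMI and 1 had 2 Pdgfra UMIs. With EC-like cells limited to those without UMIs of 5 mesenchymal genes and with at least 2 UMIs of Cdh5, Pecam1 and Kdr together, the log2 ratio was -3.25 (-3.55 to -2.95). The richest mutant cell differed: it held 32 Cdh5 UMIs, none of Gja4, 24 of Acta2 and 144 UMIs of the mural marker list.

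When the EC-like cells were clustered on their own, again without the 3 genes, control Cxcl12 was highest in an arterial endothelium-like sub-cluster with 13 control and 43 mutant cells, led by Fbln5 and Eln, genes of the elastic fibre, with 11 of 12 arterial markers raised. Its Cxcl12 level was 1123 CPM (971 to 1293) in the control and 21.5 CPM (11.5 to 36.8) in the mutant. Of its 194 control UMIs, 1 cell held 107, and without that cell the control level was 638 CPM (511 to 787). An Esm1-led sub-cluster with 22 control and 48 mutant cells followed, with 264 CPM (222 to 312) and 58.9 CPM (40.5 to 82.7), and was the highest of the mutant sub-clusters. However, 1 mutant cell held 29 of its 33 UMIs, and without that cell the mutant level was 7.52 CPM (2.05 to 19.2). With the richest cell left out of each library, the log2 ratio was -5.39 (-6.56 to -4.40) in the arterial endothelium-like and -4.70 (-6.61 to -3.30) in the Esm1-led sub-cluster. Esm1 marks endothelial tip cells, and 8 of 12 arterial markers were raised there, but none was among its 10 leading genes, so it was left unnamed. The arterial endothelium-like and Esm1-led sub-clusters held 194 and 138 of the 348 control Cxcl12 UMIs of the class, but 13 and 33 of the 170 mutant ones.

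Across the remaining sub-clusters the control level was at most 37.1 CPM. It was 20.2 CPM in the lymphatic endothelium-like sub-cluster, led by Ccl21a, Reln and Pdpn, where 1 of 19 cells held 8 of the 9 UMIs. The endocardium-like sub-cluster had 0 Cxcl12 UMIs in 8 control cells. In the mutant, the sub-cluster with the most Cxcl12 UMIs was led by Fgf23, Trib3, Pgf and Hilpda, several of them hypoxia or stress genes, and held 72 of the 170. It had 140 mutant cells at 21.2 CPM and 7 control cells without a Cxcl12 UMI, and 1 cell held 40 of its UMIs.

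The arterial markers also differed in level. The 12 arterial genes, all detected in both libraries, summed to 1394 CPM in control and 789 CPM in mutant EC-like cells, and to 7313 and 5050 CPM in the arterial endothelium-like sub-cluster. When the mutant levels were weighted by the control make-up of sub-clusters the Cxcl12 log2 ratio was -2.77, and with the mutant make-up in both it was -2.37. Without the richest cell of each library these were -2.33 and -2.17. With all cells but those of the arterial endothelium-like sub-cluster, the class log2 ratio was -2.08 (-2.41 to -1.75). The arterial endothelium-like sub-cluster rests on 13 control cells, so its level has the spread of those few cells behind it.

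At the higher resolution of 0.8 the EC-like ratio of Cxcl12 was -1.57. There, a cluster led by the arterial genes Bmx and Gja4 was named endothelial only. Its EC-like cells richest in Ackr3 held 39 control and 19 mutant UMIs, the same counts as in the endocardium-like sub-cluster. It was therefore not taken as purely arterial. The cluster took in 15 control and 53 mutant cells that the main clustering placed in mesenchyme. Those control cells had no Cdh5 or Pecam1 UMI and had Acta2, a smooth muscle actin gene, at 2670 CPM. The mutant ones had Acta2 at 2559 CPM, and held 13 Cdh5 and 43 Pecam1 UMIs, or 11.8 and 38.9 CPM. The Cxcl12 level of these mesenchyme-like cells was 505 CPM (429 to 591) in the control and 490 CPM (450 to 533) in the mutant, but 1 mutant cell held 160 of the 542 UMIs. Without the richest cell of each library the levels were 415 CPM (344 to 496) and 360 CPM (325 to 398). The log2 ratio was -0.04 (-0.30 to 0.22) with all cells, -0.20 (-0.50 to 0.10) without both and -0.49 (-0.76 to -0.21) without the mutant cell alone. The EC-like cells of the same cluster, 21 and 88 in number, had 791 CPM (699 to 892) and 10.97 CPM (6.39 to 17.6), and 530 CPM (451 to 619) and 8.47 CPM (4.51 to 14.5) without their richest cells. Eln was lower in the mutant in both sets of cells, at 4143 CPM in the control and 1001 CPM in the mutant EC-like cells. In the mesenchyme-like cells of the cluster, where Cxcl12 stood at 505 and 490 CPM, Eln was at 3065 and 629 CPM. The part of Eln in the Cxcl12 values was not tested.

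**Figure D3:**
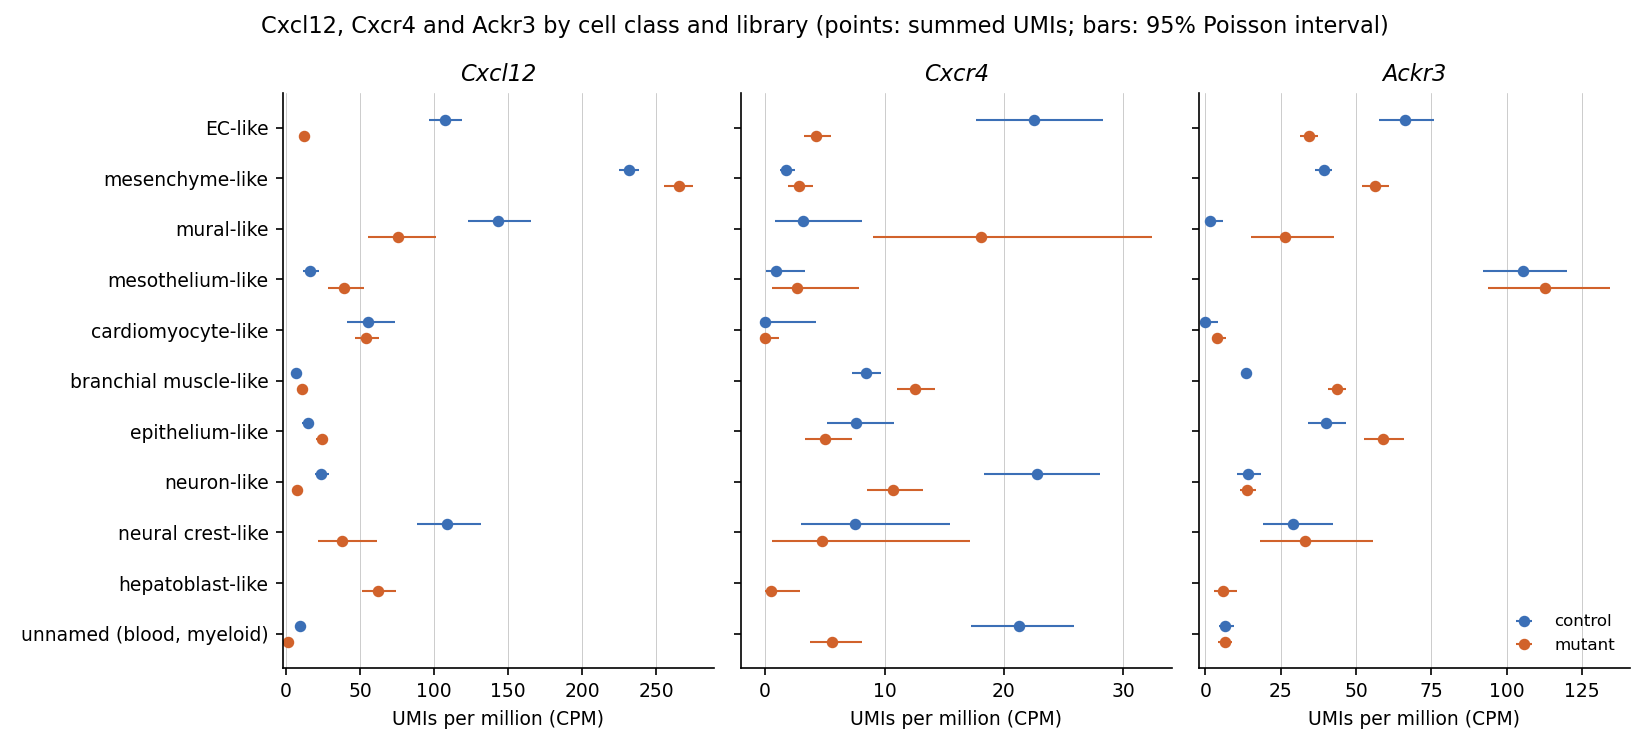
Points give the level of each gene in CPM of the summed UMIs of a cell class (horizontal axis, linear) for the control (blue) and mutant (orange) library, and bars the 95% Poisson interval. Cxcl12 in EC-like cells is at 107 and 12.3 CPM, while Ackr3 in branchial muscle-like cells is at 13.6 and 43.5 CPM.

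Other classes carried lower Cxcl12 levels. Mural-like cells, led by Myh11 and Actg2, had 143 CPM (123 to 166) in the control and 75.8 CPM (55.5 to 101) in the mutant. That name comes from the marker rule alone, and whether these cells lay in vessel walls was not tested. Neural crest-like cells had 109 CPM (88.5 to 132) and 37.9 CPM (21.7 to 61.6). Cardiomyocyte-like cells had 55.4 CPM (40.9 to 73.5) and 54.1 CPM (46.4 to 62.7), which overlapped widely. In order of the control level, mesenchyme-like cells stood above mural-like cells, mural-like and neural crest-like cells overlapped, neural crest-like and EC-like cells overlapped, and all 4 stood above cardiomyocyte-like cells. In the mutant, EC-like cells ranked 8 of 11 classes, beside branchial muscle-like cells at 10.6 CPM. The 11 include hepatoblast-like cells at 62.1 CPM (51.4 to 74.4), a class that the control lacked. Neuron-like cells had 23.8 CPM in the control and 7.26 CPM in the mutant, but 1 control cell held 47 of the 93 UMIs. Mesothelium-like cells had 16.1 CPM in the control and 39.3 CPM in the mutant, where 1 cell held 17 of the 44 UMIs. Epithelium-like cells had 14.5 and 24.0 CPM.

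Cxcr4, the signalling receptor, was spread over other classes than its ligand. In the control it was highest in neuron-like cells at 22.8 CPM (18.3 to 28.1), EC-like cells at 22.5 CPM (17.6 to 28.3) and the unnamed blood and myeloid cluster at 21.3 CPM (17.3 to 25.9), levels that overlapped. In the mutant it was 18.1 CPM (9.04 to 32.4) in mural-like cells, from 11 UMIs, 12.6 CPM in branchial muscle-like cells and 10.7 CPM in neuron-like cells, which overlapped. In mesenchyme-like cells, where the ligand was highest, it was 1.78 CPM (1.22 to 2.50) in the control and 2.80 CPM (1.89 to 4.002) in the mutant. The log2 ratio of EC-like over mesenchyme-like cells was 3.66 (3.05 to 4.30) in the control and 0.61 (-0.05 to 1.29) in the mutant. Cardiomyocyte-like cells had no Cxcr4 UMI in 54 control and 184 mutant cells, which at a floor of 3 cells allows a share of cells with a UMI of up to 5.56% and 1.63%. Ligand and receptor transcripts thus peaked in different classes in both libraries.

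In EC-like cells Cxcr4 was 22.5 CPM in the control, from 73 UMIs in 22 of 147 cells, and 4.27 CPM (3.25 to 5.51) in the mutant, from 59 UMIs in 25 of 692 cells. The mutant level was lower, with intervals apart, at a log2 ratio of -2.40 (-2.92 to -1.88). The share of cells with a UMI was 14.97% (9.62 to 21.8%) and 3.61% (2.35 to 5.29%). The mutant share was close to the 3.28% of mutant mesenchyme-like cells, which have a median of 14776 UMIs against 17038 UMIs, and above the 0 of 184 mutant cardiomyocyte-like cells.

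Cxcr4 was concentrated in 1 endothelial sub-cluster. The Esm1-led sub-cluster held 57 of 73 control and 35 of 59 mutant endothelial Cxcr4 UMIs, or 78.1% and 59.3%, and its level was 109 CPM (82.5 to 141) and 62.4 CPM (43.5 to 86.8). Cxcr4 was also among its 10 leading genes by fold, although the clustering did not use it. The sub-cluster made up 14.97% (9.62 to 21.8%) of control and 6.94% (5.16 to 9.09%) of mutant EC-like cells. The arterial endothelium-like sub-cluster came next at 46.3 CPM in the control and 6.62 CPM in the mutant, from 8 and 4 UMIs. The lymphatic endothelium-like sub-cluster had no Cxcr4 UMI in 19 control and 29 mutant cells, for which the same floor is 15.8% and 10.3% of cells with a UMI.

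Within the Esm1-led sub-cluster the log2 ratio of Cxcr4 was -0.80 (-1.45 to -0.17), against -2.40 in the whole class. 1 of the 48 mutant cells held 17 of the 35 UMIs, and 1 of the 22 control cells held 13 of 57. Without these cells the levels were 92.0 CPM (66.9 to 124) and 33.8 CPM (20.1 to 53.5), with a log2 ratio of -1.44 (-2.32 to -0.62). At the control make-up of sub-clusters the class ratio was -0.93, and at the mutant make-up -1.20, while without the richest cell of each library these were -1.46 and -1.56 and the class ratio itself was -2.62. The 3 genes were left out of this clustering, yet the share of a sub-cluster and the level within it still come from the same few control cells.

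**Figure D4:**
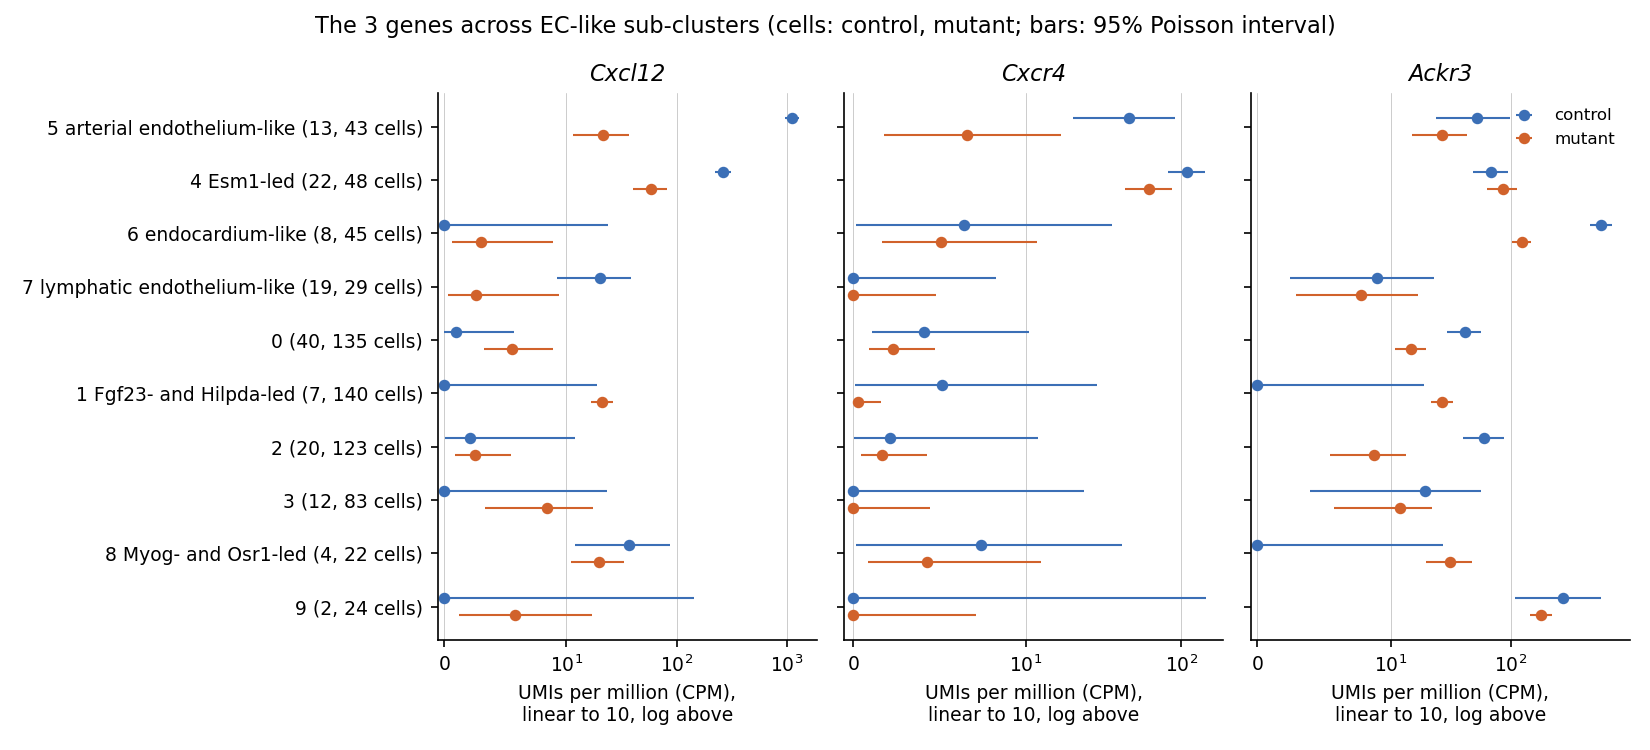
Points give the level in CPM (horizontal axis, linear to 10 and logarithmic above) of the 3 genes in 10 sub-clusters of the EC-like cells, with 95% Poisson intervals, for control (blue) and mutant (orange). Cxcl12 peaks in sub-cluster 5 at 1123 CPM, Cxcr4 in sub-cluster 4 at 109 CPM and Ackr3 in sub-cluster 6 at 566 CPM, all in the control. Without the richest control cell of the sub-cluster these levels were 638, 92.0 and 435 CPM.

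Outside the endothelium, Cxcr4 was 8.42 CPM (7.29 to 9.68) in control and 12.6 CPM (11.1 to 14.3) in mutant branchial muscle-like cells. This class holds progenitors and differentiating cells of the head muscles, and 16.1% and 21.7% of its cells had a UMI. The mutant level was higher there, at a log2 ratio of 0.58 (0.30 to 0.86). In neuron-like cells it was 22.8 CPM in the control and 10.7 CPM (8.53 to 13.2) in the mutant. The blood and myeloid cluster had 21.3 CPM in the control and 5.60 CPM (3.72 to 8.10) in the mutant. Split at the higher resolution, its macrophage-like cells had 31.5 CPM (24.9 to 39.4) in the control and 7.56 CPM (3.46 to 14.4) in the mutant, and its erythroid-like cells 9.93 and 4.99 CPM. Macrophage-like cells were 92 in the control and 41 in the mutant, so the mix of blood cells also differed.

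Ackr3, the scavenging receptor, was highest in mesothelium-like cells in both libraries. These cells, which form the lining of the body cavities and the epicardium, had 105 CPM (92.2 to 120) in the control and 113 CPM (93.9 to 134) in the mutant, which overlapped, and 65.7% and 62.1% of cells had a UMI. Next in the control came EC-like cells at 66.3 CPM (57.7 to 75.8). Epithelium-like cells at 40.1 CPM (34.2 to 46.7) and mesenchyme-like cells at 39.2 CPM (36.4 to 42.2) overlapped.

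In EC-like cells Ackr3 was 66.3 CPM in the control and 34.3 CPM (31.3 to 37.6) in the mutant, with 35.4% (27.7 to 43.7%) and 23.1% (20.03 to 26.4%) of cells holding a UMI, against 1.09% and 2.44% of the macrophage-like cells. The mutant level was lower, at a log2 ratio of -0.95 (-1.18 to -0.71). All 3 genes were past 1.5-fold lower in mutant EC-like cells, where 15.1% of the 14143 genes with at least 20 UMIs were past 1.5-fold lower and 14.9% past 1.5-fold higher. The 3 genes were chosen with this contrast known, so nothing is read from that count.

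Among the endothelial sub-clusters, Ackr3 was highest in the control in the endocardium-like one, led by Tmem108 and Hand2. Its 8 control cells held 88 of the 215 UMIs of the class, or 40.9%, at 566 CPM (454 to 698), and all 8 had a UMI. 1 of them held 39, and without it the level was 435 CPM (322 to 575). Its 45 mutant cells held 122 of 474 UMIs at 124 CPM (103 to 148), or 25.7%, and 53.3% (37.9 to 68.3%) had a UMI. Most endothelial Ackr3 UMIs of either library thus lay outside this sub-cluster. A sub-cluster with 2 control and 24 mutant cells, led by Jakmip3, Tafa1 and Ak9 and left unnamed, had 272 and 180 CPM. The endocardial markers summed to 4955 CPM in the control and 2742 CPM in the mutant endocardium-like cells.

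In the Esm1-led sub-cluster Ackr3 did not follow the other genes, at 68.8 CPM (48.2 to 95.3) in the control and 85.6 CPM (63.1 to 114) in the mutant, which overlapped. Sub-clusters 0 and 2, with 40 and 20 control cells, were at 41.2 and 60.3 CPM in the control and at 14.8 and 8.75 CPM in the mutant. Others lay the opposite way: the Fgf23-led sub-cluster had no Ackr3 UMI in 7 control cells and 91 UMIs, or 26.8 CPM, in 140 mutant cells. The Myog-led sub-cluster had none in 4 control cells and 22 UMIs in 22 mutant cells. Its lower log2 bound was 0.07 with all cells and -0.39 without its richest mutant cell, which held 6 UMIs. This sub-cluster also had 14 of 17 mesenchyme and 9 branchial muscle markers raised among the EC-like cells. Without the endocardium-like sub-cluster the class log2 ratio was -0.58 (-0.88 to -0.28).

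Branchial muscle-like cells showed the opposite for Ackr3. The level was 13.6 CPM (12.1 to 15.1) in 892 control cells and 43.5 CPM (40.7 to 46.6) in 848 mutant cells, and the share of cells with a UMI was 21.0% (18.3 to 23.8%) and 47.4% (44.0 to 50.8%). Thinned to 5000 UMIs per cell, the shares were 6.49% and 19.1%. The log2 ratio was 1.68 (1.49 to 1.87), and 4.04% of the genes compared in this class had a higher one. Cxcl12 and Ackr3, 2 of the 3 genes, were past 1.5-fold higher in this class, where 16.8% of 15733 genes were and 9.83% were past 1.5-fold lower. The Cxcl12 level was 6.47 CPM (5.48 to 7.58) in the control and 10.6 CPM (9.17 to 12.1) in the mutant, and its log2 ratio of 0.71 (0.40 to 1.02) was -0.0851 in cells thinned to 5000 UMIs.

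Each of the 3 branchial muscle-like clusters had the higher Ackr3 level in the mutant. In the cluster led by Msc and Myf5, early regulators of head muscle, it was 11.9 CPM (10.4 to 13.6) in the control and 40.7 CPM (37.5 to 44.1) in the mutant. In the Pax7-led cluster it was 15.01 CPM (9.97 to 21.7) and 79.2 CPM (66.9 to 93.2). In the cluster of differentiating cells, with Myh3, Tnnc2 and Mylpf, it was 20.4 CPM (16.1 to 25.3) and 36.1 CPM (29.7 to 43.4). None of these intervals overlapped between the libraries. For Cxcl12 the 3 clusters did not share a direction. Its log2 ratio was 1.20 (0.82 to 1.58) in the Msc-led cluster, -0.78 (-1.80 to 0.19) in the Pax7-led one and -0.35 (-1.16 to 0.44) in the differentiating one.

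Ackr3 in mutant branchial muscle-like cells was 46.3 CPM in 292 female-like and 43.3 CPM in 478 male-like cells, with a log2 ratio between them of -0.10 (-0.30 to 0.11). Both were above the control level of 13.6 CPM. The ratio of mutant over control was 1.60 to 1.77 over 12 alternative settings. The direction thus did not rest on 1 sex of embryos, but the mutant embryos were still 1 pool.

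Ackr3 was also higher in mutant mesenchyme-like cells, at 56.4 CPM (52.0 to 61.1) against 39.2 CPM, and in mutant epithelium-like cells, at 59.0 CPM (52.7 to 65.9) against 40.1 CPM. Within mesenchyme the clusters differed. The Twist1-marked cluster had 67.0 CPM (62.1 to 72.2) in the control and 62.9 CPM (57.9 to 68.3) in the mutant, which overlapped. The Adh1-marked cluster had 5.49 CPM (4.02 to 7.32) in the control and 16.2 CPM (10.4 to 24.1) in the mutant, where 1 cell held 9 of the 24 UMIs. Without the richest cell of each library its levels were 5.04 CPM (3.63 to 6.81) and 10.3 CPM (5.77 to 17.0), which overlapped. Of the 3 genes, only Cxcr4, with 33 and 30 UMIs, was past 1.5-fold higher in mesenchyme-like cells, where 13.8% of 15857 genes were and 10.8% were past 1.5-fold lower. The log2 ratio of Ackr3 in EC-like over mesenchyme-like cells was 0.76 (0.53 to 0.98) in the control and -0.72 (-0.89 to -0.54) in the mutant. The order of the 2 whole classes was thus opposite in the libraries. In the control, however, the Twist1-marked cluster at 67.0 CPM lay beside the EC-like cells at 66.3 CPM. The Adh1-marked cluster had 343 of 895 control and 62 of 640 mutant mesenchyme-like cells. The part of this make-up in the class ratio was not tested. In neuron-like cells Ackr3 was 14.1 and 14.0 CPM, and in cardiomyocyte-like cells it was at 0 UMIs in the control and 13 UMIs in the mutant.

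**Figure D5:**
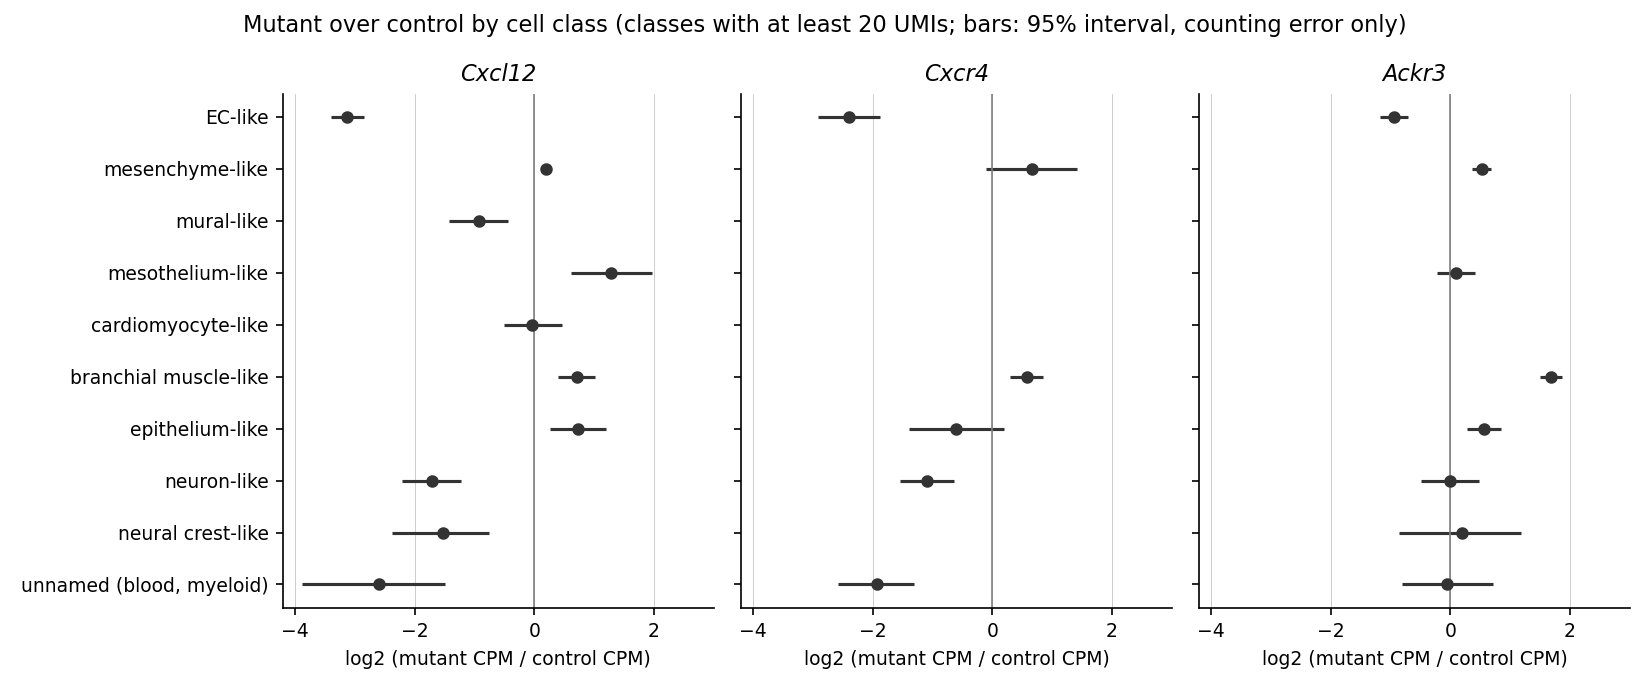
Points give the log2 ratio of mutant over control CPM by cell class for classes with at least 20 UMIs of the gene, and bars the 95% interval for counting error. All 3 genes lie below 0 in EC-like cells, at -3.12, -2.40 and -0.95, and Ackr3 lies at 1.68 in branchial muscle-like cells.

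Cxcl12 and Cxcr4 transcripts were found together in some EC-like cells of both libraries. Of the 21 control EC-like cells with Cxcl12, 12 also had Cxcr4, or 57.1% (34.0 to 78.2%), against 7.94% (3.87 to 14.1%) of the EC-like cells without Cxcl12. In the mutant, 6 of 65 did, or 9.23% (3.46 to 19.0%), against 3.03% (1.83 to 4.69%), and these intervals overlapped, unlike those of the control. Deeper cells can hold more UMIs of every gene, and the part of depth in such pairs was not tested. The Esm1-led and arterial endothelium-like sub-clusters held 138 and 194 of the 348 control Cxcl12 UMIs. They also held 57 and 8 of the 73 control Cxcr4 UMIs. In the mutant they held 33 and 13 of 170 Cxcl12 and 35 and 4 of 59 Cxcr4 UMIs. The part of sub-cluster membership was not tested either. EC-like cells with Cxcl12 had a median of 4 Cxcl12 UMIs in the control and 1 in the mutant. Of the control EC-like cells with Cxcl12, 52.4% (29.8 to 74.3%) also had Ackr3, against 32.5% (24.5 to 41.5%) of those without, which overlapped. Of the mutant ones 36.9% (25.3 to 49.8%) had it, against 21.7% (18.5 to 25.1%). Of the EC-like cells with Cxcr4, 68.2% (45.1 to 86.1%) in the control and 52.0% (31.3 to 72.2%) in the mutant had Ackr3. Among those without Cxcr4 the shares were 29.6% (21.8 to 38.4%) and 22.0% (18.9 to 25.4%). For the cells with Cxcl12 and for those with Cxcr4, the Ackr3 intervals of the libraries overlapped.

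The other parts of the pathway did not share 1 direction in EC-like cells. Of 16 partners of the axis in a fixed list, 14 had at least 20 UMIs, with 2 past 1.5-fold higher in the mutant and 1 lower, where 14.9% of all 14143 genes were higher and 15.1% lower. Their median log2 ratio was -0.24, against -0.07 over all genes. Mif, another cytokine ligand of both receptors, was 615 CPM in the control and 1776 CPM in the mutant, with a log2 ratio of 1.53 (1.47 to 1.60). Cxcl12 and Mif thus lay on opposite sides of equal levels in these cells. Grk5, a kinase that turns off G protein-coupled receptors, was 98.1 and 50.3 CPM, at -0.96 (-1.16 to -0.77). Arrb2, an arrestin that binds the activated receptors, was 26.2 and 42.5 CPM, at 0.70 (0.37 to 1.04). The remaining partners lay between -0.41 for Hmgb1, whose protein binds Cxcl12, and 0.57 for Grk3. Among them the G protein subunits were at -0.29 (Gnai1), -0.27 (Gnai2) and -0.08 (Gnai3), and Dpp4, a protease that inactivates Cxcl12, at -0.38 (-0.98 to 0.26). The rest were Grk6 (-0.39), Arrb1 (-0.31), Itch (-0.20), Grk2 (-0.10) and Rgs16 (0.02).

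Of the 12 regulators on the list, 2 were past 1.5-fold higher and 5 lower in mutant EC-like cells, beside 14.9% and 15.1% of all genes, with a median of -0.21. The higher ones were the forkhead genes Foxc1, at 17.0 and 35.1 CPM with a log2 ratio of 1.05 (0.64 to 1.48), and Foxc2, at 14.2 and 42.4 CPM with 1.58 (1.15 to 2.05). The lower ones included Ebf1, at 289 and 121 CPM with -1.26 (-1.37 to -1.14), and Ebf3, at 95.9 and 32.7 CPM with -1.55 (-1.77 to -1.34), transcription factors known in cells that make Cxcl12. Hey1 and Notch1, of the arterial Notch pathway, were at -0.97 (-1.21 to -0.72) and -0.59 (-0.75 to -0.43). Epas1, which codes for HIF-2α, was at -0.73 (-0.91 to -0.54), and Hif1a at -0.10 (-0.26 to 0.07). The rest were Sox17 (-0.32), Klf4 (0.16), Foxo1 (0.17) and Klf2 (0.25).

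In mesenchyme-like cells, 5 of the 11 regulators with at least 20 UMIs were past 1.5-fold higher in the mutant and none lower, beside 13.8% and 10.8% of all genes, with a median of 0.55 against 0.02 over all genes. Of the regulators past 1.5-fold lower in EC-like cells, only Ebf1 was also lower in mesenchyme-like cells, at 316 CPM in the control and 245 CPM in the mutant. Ebf3, at 134 and 195 CPM, had a log2 ratio of 0.54 (0.45 to 0.62). Hey1 was at 2.02 (1.78 to 2.26), Notch1 at 0.67 (0.42 to 0.93) and Epas1, from 23 and 28 UMIs, at 1.08 (0.23 to 1.94). Foxc1 was at 9.97 and 32.0 CPM. Mif was higher in these cells too, at 1035 and 1951 CPM.

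Of the 11 heparan sulfate proteoglycans, which hold Cxcl12 on cell surfaces and matrix, 3 were past 1.5-fold higher and 4 lower in mutant EC-like cells, with a median of -0.28. The shares of all genes were again 14.9% and 15.1%, also for the lists that follow. Those with the most UMIs were Hspg2 (-0.12), Gpc6 (-0.69), Gpc3 (0.85) and Sdc1 (-0.28). Among 35 other chemokine ligands, 13 had 20 UMIs, with 3 higher and 4 lower and a median of -0.22. Ccl21a, made by lymphatic endothelium, was 83.3 and 11.5 CPM, at -2.85 (-3.15 to -2.57), and Cx3cl1 (0.28), Ccl25 (0.04) and Pf4 (0.23) followed in UMIs. The lymphatic endothelium-like sub-cluster made up 12.9% of control and 4.19% of mutant EC-like cells. Among 21 other chemokine receptors, 8 had 20 UMIs, with 2 higher and 1 lower and a median of 0.05. Cx3cr1 was at 0.19, Ackr2, another scavenging receptor, at 1.27 (0.41 to 2.26), and Ackr4 at -0.12, while Ccr4 had 1 and 41 UMIs and Ackr1 11 and 31 UMIs.

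Across 18 sums of at least 50 cells of a class in a library, the levels most like those of Cxcl12, as Pearson's r of log2(CPM + 1) among 8168 genes, were of Vcam1 (0.87), Egflam (0.83), Tns1 (0.80), Foxf2 (0.79) and Sned1 (0.77). For Cxcr4 they were of Baz1a, Abhd17b, Zc3h12c, Cdc42se2 and Arhgef2, from 0.86 to 0.84, and for Ackr3 of Pdgfd (0.88), Pdpn (0.82), Etl4 (0.81), Id3 (0.79) and Slc39a10 (0.78). The sums of a library share their embryos, sort and library preparation, so these values are a description. None of the 3 genes was among the 5 most like another of them.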

How the data were processed

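The deposited matrices hold raw UMI counts per gene and cell, which the authors made from 10x Genomics 5′ libraries with Cell Ranger 7.1.0 on GRCm38/mm10 (mm10 in the submitters' processing notes). Each genotype had 1 library of 3 pooled embryos, with 66935720 control and 73915525 mutant UMIs. Cells were kept above 2000 and below 9000 detected genes when mitochondrial UMIs were under 10%, following the study's filters as far as stated. Libraries were integrated by CCA in Seurat 5.3.0 (R 4.3.3) with cell cycle regressed, 2000 variable genes and 30 components. The 97 genes of the member, pathway and chemokine lists were left out, and resolution 0.26 gave 15 clusters. A cluster took the name of the class with the most fixed markers among its 10 leading genes by fold and at least 3 raised. Clusters named cartilage by this rule were counted as mesenchyme. EC-like cells were clustered again at resolution 0.8.

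UMIs were summed per class and library and divided by all UMIs of the sum (CPM). Levels have exact Poisson, shares Clopper-Pearson and log2 ratios conditional exact binomial intervals, for counting error only. The formulas were run on simulated Poisson totals, which checks the arithmetic only. Those totals lack the clumping of UMIs in single cells, so coverage in the real data was not tested. Nothing was tested between the libraries, since each genotype is 1 sample. Genes were compared where both libraries together held 20 UMIs. Scrublet (scanpy 1.11.5) called 0 control and 1 mutant doublets and so had not worked, and doublets were kept. The members and lists were chosen with earlier results of these data known. Named are the members, the partners and regulators with 20 UMIs, the 4 genes with the most UMIs of the other lists, and the 5 genes most like each member. Genes and sub-clusters named beyond this were chosen after their values were seen. Alternatives covered doublets, integration, filters, resolution, class rules, scaling (edgeR 4.0.16), thinning and sex. The doublet alternative left out the cells with the highest Scrublet scores, so it shares the limit of those scores. Introns and strand settings are not given in the sources used here.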

Additional observations from a re-analysis of the deposited data

Results flagged for a closer look

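EC-like cells and other classes lay on opposite sides of equal levels between mutant and control, each with an interval on 1 side of 0. The differences of the log2 ratios were not tested, since each genotype is 1 library. For Cxcl12, the log2 ratio in EC-like cells was lower by 3.32 than in mesenchyme-like cells, by 3.83 than in branchial muscle-like cells, by 3.85 than in epithelium-like cells and by 4.41 than in mesothelium-like cells. In branchial muscle-like cells, however, the Cxcl12 ratio was -0.0851 in thinned cells, and the male-like mutant cells had 5.45 CPM, below the 6.47 CPM of the control. The mesenchyme-like ratio itself lay within 0.03 of 0 when classes were set from marker counts, at -0.03, or when cells were averaged. Of the mesenchyme-like Cxcl12 UMIs, the Twist1-marked cluster held 3713 of 4298 in the control and 2624 of 2838 in the mutant. Its own log2 ratio was -0.36 (-0.43 to -0.29), on the same side of 0 as in EC-like cells. The smaller Adh1-marked cluster was at 1.05 (0.81 to 1.28). In mesothelium-like cells, 1 mutant cell held 17 of the 44 mutant Cxcl12 UMIs. The log2 ratio there was 1.07 (0.23 to 1.91) without the richest cell of each library. It was 0.61 (-0.17 to 1.38) without the mutant cell alone. For Cxcr4, the branchial muscle-like ratio was above the EC-like one by 2.98. That branchial muscle-like ratio was 0.16 to 0.77 over 12 alternative settings, and the shares of thinned cells with a UMI overlapped between the libraries. For Ackr3, the difference from the EC-like ratio was 1.47 in mesenchyme-like, 2.63 in branchial muscle-like and 1.51 in epithelium-like cells. The Twist1-marked cluster held 682 of the 728 control and 580 of the 604 mutant mesenchyme-like Ackr3 UMIs. Its own log2 ratio was -0.09 (-0.25 to 0.07).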

How the results depend on the processing

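The EC-like log2 ratios of all 3 genes were below 0 in each of 20 alternatives, from -3.62 to -1.57 for Cxcl12, -2.62 to -0.93 for Cxcr4 and -1.16 to -0.52 for Ackr3. For Cxcl12 the ratio was -2.62 with cells of at least 1000 genes, -1.57 at resolution 0.8, -3.40 as a mean over cells and -3.62 in thinned cells. Ackr3 was at -0.52 in strictly defined EC-like cells. In mesenchyme-like cells Cxcl12 was at 0.0811 at resolution 0.8, 0.12 with TMM scaling, 0.0761 in thinned cells and 0.80 in female-like cells, and on the other side of 0 with marker-count classes (-0.0272) and as a mean over cells (-0.0012), so its direction was not settled. The EC-like over mesenchyme-like ratio was -0.66 (control) and -2.31 (mutant) at resolution 0.8. In the mutant it was -3.97 with at least 1000 genes, -3.92 with marker-count classes, -4.87 in thinned and -5.11 in female-like cells. The EC-like share of Cxcl12 UMIs was 9.40% and 18.7% at resolution 0.8, where Acta2-rich cells joined the class, so the order of the libraries was reversed there. In strict EC-like cells the share was 5.68% and 3.58%. In the mutant it was 6.02% with at least 1000 genes, 3.03% in thinned and 3.83% in female-like cells. Apart from resolution 0.8, where cells moved between classes, the causes were not tested.

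Alternatives added after the data were seen left out EC-like sub-clusters or the cell with the most UMIs of the gene in each library. Without these cells the EC-like ratios were -2.99 for Cxcl12, -2.62 for Cxcr4 and -0.74 for Ackr3, and Cxcl12 in mesenchyme-like cells was at 0.14. The Cxcl12 ratio was -3.60 without sub-cluster 1 and -2.08 without sub-cluster 5, and -2.77 and -2.37 at the control and mutant make-up. Cxcr4 was at -1.70 without sub-cluster 4, and -0.93 and -1.20 at the 2 make-ups, and Ackr3 at -0.58 without sub-cluster 6. The EC-like over mesenchyme-like ratio in the control was -1.59 without sub-cluster 4 and -2.21 without sub-cluster 5, with shares of 4.02% and 2.98%. In the mutant it was -4.82 without sub-cluster 1 and -4.68 without sub-cluster 4, with shares of 2.62% and 3.63%.

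Of 177 values for 15 other class ratios, 155 stayed within the interval for counting error. Among the ratios whose main interval lay on 1 side of 0, 4 values changed sign. These were Cxcl12 in branchial muscle-like cells when thinned (-0.0851), and in mural-like cells with marker-count classes (1.12), as a mean over cells (0.24) and when thinned (0.21). Ratios whose main interval held 0 are not in that count, and some took both signs. They were Ackr3 in neuron-like (-0.89 to 0.89) and mesothelium-like cells (-0.38 to 0.22), and Cxcl12 in cardiomyocyte-like cells (-1.80 to 0.32). TMM and the median ratio moved the EC-like log2 ratios by 0.12 and 0.10. No paired analysis was possible because each genotype has 1 library. The 147 control EC-like cells, and the 13 and 8 in the sub-clusters with the highest control levels of Cxcl12 and Ackr3, limit the precision.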
